A study of Mus musculus with 8 samples.

Results

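The enterocyte brush border genes are 35 genes in 3 classes, taken by name: 11 hydrolases, 10 nutrient and bile acid transporters and 14 genes of microvillus structure. They were matched by symbol and Ensembl identifier to the table of 54532 mouse genes, and each of the 35 matched 1 identifier. The rule uses gene names and no measured value, although the genes were chosen with earlier results of these data known. Transcripts were counted by 3′ mRNA sequencing in 8 libraries of mouse intestinal organoids, 4 labelled control and 4 labelled RANKL-treated, to ask how stimulation of the receptor RANK changes the gut epithelium. Organoids are cultures that grow from crypts of the intestine in a gel and contain stem cells and the differentiated cells they give rise to. The medium described by the study contains EGF, R-spondin and NOGGIN, an antagonist of BMP ligands, and both groups share it. RANKL is a cytokine of the TNF family that binds RANK and activates NF-kB. Per the study's methods its mouse lines had a C57BL/6J background, whereas the age of the mice behind these organoids, the RANKL dose and the length of exposure are not given for these libraries in the sources used here. The labels number the replicates without saying whether they are separate cultures or animals, so the p-values measure only the spread between these samples, which may be technical.

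The brush border is the carpet of microvilli on the apical face of the enterocyte, the absorptive cell of the gut. Hydrolases anchored in its membrane finish the digestion of sugars and peptides, and transporters beside them take up the products and pass them to the blood through the basolateral membrane. Each microvillus is held up by a core of bundled actin that is tied to the membrane by myosins and linker proteins, and neighbouring tips are joined by a pair of protocadherins, which lets the microvilli pack evenly. Enterocytes switch these genes on as they leave the crypt, under factors such as HNF4, CDX2 and HNF1.

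Library totals lay between 583663 and 7807298 counts (median 3911808 in control and 1613410 with RANKL), and control replicate 4 and RANKL replicate 1 were the shallowest. Levels are given in CPM, the count relative to the library total after scaling by TMM, a normalization that sets the bulk of genes equal between libraries. Each read marks the 3′ end of a transcript, so levels were not divided by gene length. Where a gene had no count, up to 3 counts could have been missed by counting error alone, which amounts to 0.384 to 5.14 CPM depending on the depth. The 35 genes together took 0.618% to 0.682% of all counts in control and 0.665% to 0.777% with RANKL. None of them shared exon sequence on the same strand with another annotated gene, and the counting was strand-specific.

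Promoter sequence from RefSeq (GRCm38.p6, the 250 bases before the start of the gene, read 5′ to 3′ on the gene's strand) was found for 31 of the 35 genes. It is shown for the genes with the highest fitted rises, Cdhr5 (chr7:141276787-141277036, minus strand) and Slc3a1 (chr17:85028097-85028346, plus strand), for the gene with the deepest fall, Slc6a19 (chr13:73692637-73692886, minus strand), and for the disaccharidase Sis (chr3:72967864-72968113, minus strand), which did not pass the test. Capitals mark every match on either strand to the letters searched. For HNF4 these were CAAAGT for a single site and CAAAGTCCA for part of a direct repeat. They were TTTATG and TTTATT for CDX2, GTTAAT for a single HNF1 site and AGATAAG for GATA factors. The letters for NF-kB were GGG and CC with any 5 bases between, and those for a TATA box were TATAAA.
Cdhr5: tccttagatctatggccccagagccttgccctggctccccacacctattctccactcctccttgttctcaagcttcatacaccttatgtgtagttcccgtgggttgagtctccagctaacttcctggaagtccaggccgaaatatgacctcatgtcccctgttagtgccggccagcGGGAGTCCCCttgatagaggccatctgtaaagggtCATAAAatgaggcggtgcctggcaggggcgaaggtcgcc
Slc3a1: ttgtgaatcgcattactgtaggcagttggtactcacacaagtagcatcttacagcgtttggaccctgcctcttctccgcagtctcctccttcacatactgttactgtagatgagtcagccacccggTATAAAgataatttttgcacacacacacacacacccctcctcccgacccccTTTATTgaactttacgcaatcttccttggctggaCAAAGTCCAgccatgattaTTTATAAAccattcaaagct
Slc6a19: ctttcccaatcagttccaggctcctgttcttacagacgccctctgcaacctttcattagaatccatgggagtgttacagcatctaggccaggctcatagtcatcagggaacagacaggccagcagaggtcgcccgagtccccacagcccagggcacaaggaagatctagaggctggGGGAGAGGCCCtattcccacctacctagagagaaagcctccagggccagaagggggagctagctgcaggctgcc
Sis: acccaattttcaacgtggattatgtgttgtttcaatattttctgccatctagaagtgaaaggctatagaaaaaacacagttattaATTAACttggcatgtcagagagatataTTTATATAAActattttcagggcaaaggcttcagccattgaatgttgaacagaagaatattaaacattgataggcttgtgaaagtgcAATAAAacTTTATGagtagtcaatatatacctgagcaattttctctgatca

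The letters of the NF-kB motif lay 74 to 65 bases before the start both in Cdhr5, which rose, and in Slc6a19, which fell, and were not in the windows of Slc3a1 and Sis. They are common letters: 21 of the 31 promoters of brush border genes held them (67.7%), against 48.7% of the 27025 genes with a promoter in the table. Among the genes that passed the test, 3 of the 4 that rose and 3 of the 4 with a promoter that fell held them. So did 15 of the 23 tested genes with a promoter that did not pass. The letters for part of an HNF4 direct repeat were in 4 of 31 (12.9%, in Alpi, Muc13, Slc3a1 and Treh) against 0.451% of all genes. In Slc3a1 they lay 39 to 31 bases before the start. The single HNF4 site was in 11 of 31 (35.5%) against 14.1%. CDX2 letters TTTATG were in 5 of 31 (16.1%; Cdhr5, Espn, Lct, Muc13 and Sis) against 12.4%, and in Sis they lay 43 to 38 bases before the start beside TTTATT at 51 to 46. The second CDX2 form, TTTATT, was in 5 of 31 (16.1%; Mgam, Muc3, Sis, Slc3a1 and Slc7a9), below its share of 20.4% over all genes. A TATA box was in 7 of 31 (22.6%) against 14.3%, the single HNF1 site in 4 of 31 (12.9%) against 7.49% and the GATA letters in 2 of 31 (6.45%) against 3.17%. The CDX2 and TATA letters can overlap, as can NF-kB matches with each other, and the letters CAAAGT lie inside CAAAGTCCA. A match is a description of these letters in this window and not a bound site. The RefSeq start of Slc6a19 lies inside the longer gene model of GENCODE M21, whereas the starts of Cdhr5 and Sis are the same in both. That of Slc3a1 lies before its GENCODE start at 85028376, and the positions given for its matches count from the RefSeq start.

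With RANKL a few brush border genes moved, in both directions, and most did not pass the test. Of the 34 genes with enough counts to be tested, 9 passed the threshold of an adjusted p of 0.05 (26.5%; edgeR's quasi-likelihood test, with p-values adjusted by Benjamini-Hochberg across 9971 genes), and the background over all genes tested was 25.9%. The rises were 4 in number (Cdhr5, Slc3a1, Muc13 and Pls1), against 13.6% of all genes, and the falls were 5 (Slc6a19, Eps8, Espn, Baiap2l1 and Slc2a2), against 12.4%. The share past the threshold was thus close to the background. Without the 2 shallowest libraries the counts were again 4 and 5, while the falls numbered 3, 2 and 3 without RANKL replicate 1, 2 or 4, and 2 by DESeq2. The median log2 fold change was -0.09 over the 34 and 0.00 over all genes, and the median size of the log2 fold change was 0.24 against 0.26. The 4 control and 4 RANKL values did not overlap for 6 of the 34 (17.6%), against 24.6% of all genes. All 25 tested genes that missed the threshold had a 95% interval within a 2-fold change either way, and for 17 of the 25 it lay within 1.5-fold. In bulk RNA, fewer cells of a type and less RNA per cell cannot be told apart.

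**Figure D1:**
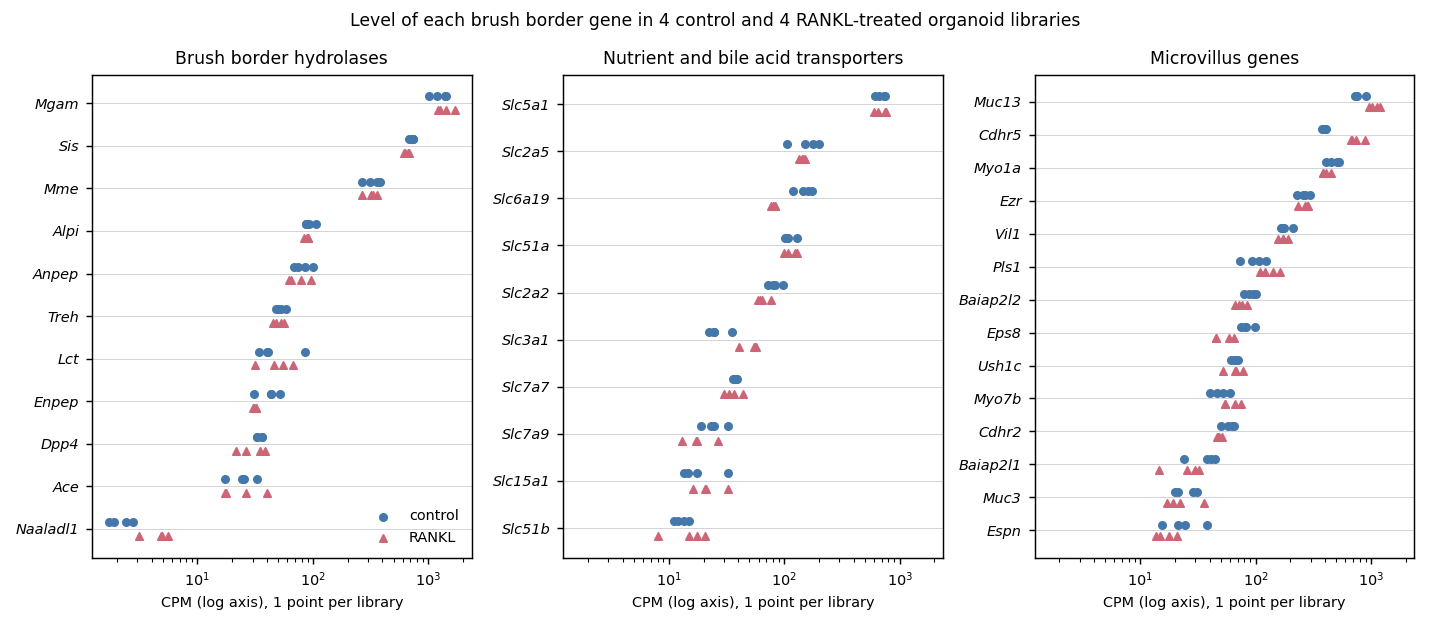
Level of each of the 35 genes in CPM on a log axis, with 1 blue circle per control library and 1 red triangle per RANKL library, genes ordered within each class by mean level. Most genes have mixed circles and triangles, and Cdhr5, Muc13, Slc3a1, Slc6a19, Eps8 and Sis have groups that do not overlap, as does Naaladl1 at under 6 CPM.

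The hydrolases did not pass the threshold in either direction. Of 11, 10 could be tested and 0 were called by edgeR, DESeq2 or limma-voom, where edgeR called 25.9% of all genes, and 1 of the 10 (Enpep) had an unadjusted p under 0.05. Their log2 fold changes ran from -0.37 to 0.21 with a median of -0.08, and the 95% intervals of all 10 lay between -0.70 and 0.63.

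Among the sugar-splitting enzymes, Mgam, the maltase-glucoamylase that releases glucose from starch fragments, had the highest level of all 35 genes, with 1398, 1199, 1020.3 and 1410.2 CPM in control replicates 1 to 4 and 1429, 1219.6, 1271 and 1686 CPM in RANKL replicates 1 to 4. The groups overlapped (log2 fold change 0.16, 95% interval -0.06 to 0.39, adjusted p = 0.31). Sis, the sucrase-isomaltase that acts beside it, had 739, 675, 732 and 721 CPM in control replicates 1 to 4 and 623, 614, 663 and 673 CPM in RANKL replicates 1 to 4. Every RANKL library was below every control library, by a small amount (exact permutation p = 0.0286, two-sided, the smallest the 70 assignments of 4 against 4 can give), while the fit across all genes gave a log2 fold change of -0.15 with a 95% interval of -0.34 to 0.03 and an adjusted p of 0.22. Lct, the lactase of milk sugar digestion that marks the young gut, had 39.8, 40.5, 33.96 and 85.99 CPM in control replicates 1 to 4 and 54.9, 31.7, 45.9 and 67.01 CPM in RANKL replicates 1 to 4, and control replicate 4 stood above the other 7 libraries. Its groups overlapped and the fit gave 0.21 ± 0.21 (SE). Treh, which splits trehalose, averaged 52.2 ± 4.35 CPM in control and 50.9 ± 4.95 CPM with RANKL (SD, n = 4 each), with overlapping groups.

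The peptidases cleave peptides at the cell surface. Mme (neprilysin) was the highest of them with 266, 310.2, 378 and 356 CPM in control replicates 1 to 4 and 358, 317, 264 and 328 CPM in RANKL replicates 1 to 4, which overlapped (log2 fold change -0.05, 95% interval -0.28 to 0.18). Anpep, the aminopeptidase N that also serves as a marker of the mature brush border, averaged 82.4 ± 13.8 CPM in control and 75.5 ± 16.2 CPM with RANKL. Enpep, the glutamyl aminopeptidase that trims angiotensin, had 43.03, 42.9, 30.7 and 51.6 CPM in control replicates 1 to 4 and 32.3, 30.3, 32.3 and 30.8 CPM in RANKL replicates 1 to 4. The RANKL libraries of Enpep sat close together at the low end of the control range, and the gene missed the threshold (log2 fold change -0.37, SE 0.17, adjusted p = 0.11). Without control replicate 3 it passed, with an adjusted p of 0.016, and its adjusted p ranged from 0.016 to 0.27 over 19 alternatives. Dpp4, which removes dipeptides and inactivates incretin hormones, averaged 34.6 ± 2.18 CPM in control and 30.4 ± 7.99 CPM with RANKL, and Ace, the angiotensin-converting enzyme, averaged 24.9 ± 6.21 CPM in control and 25.4 ± 10.8 CPM with RANKL. Both overlapped. Alpi, the intestinal alkaline phosphatase that removes phosphate from lipopolysaccharide, averaged 93.5 ± 8.78 CPM in control and 88.05 ± 3.49 CPM with RANKL (log2 fold change -0.10, 95% interval -0.34 to 0.14).

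Naaladl1, a peptidase of the glutamate carboxypeptidase family, was the member that had too few counts for the fit. It had 15, 9, 11 and 1 counts in control replicates 1 to 4 and 3, 8, 6 and 9 counts in RANKL replicates 1 to 4, which is 1.91, 2.42, 2.79 and 1.72 CPM and 4.84, 5.51, 3.13 and 4.94 CPM. All RANKL values were above all control values (exact permutation p = 0.0286), on 26 counts in the 4 RANKL libraries. With no filter on low counts the fitted log2 fold change was 0.93 with an adjusted p of 0.25 (edgeR), and DESeq2 gave 0.99 with an adjusted p of 0.33, so that the difference was not detectable at this depth in a test across all genes.

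The transporters split: the heavy chain Slc3a1 rose, the neutral amino acid carrier Slc6a19 and the glucose exporter Slc2a2 fell, and the other 7 of 10 did not pass the test. That is 3 of 10 called (30.0%), against the 25.9% of all genes. The median log2 fold change over the class was -0.06. Slc2a2 was the fall that alternatives removed, which left 1 fall in the class.

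Slc6a19 (B0AT1; ENSMUSG00000021565, chr13:73679745-73704865, minus strand) carries most neutral amino acids into the enterocyte with sodium. It had 146, 159.7, 120.1 and 175 CPM in control replicates 1 to 4 and 80.7, 76.4, 83.4 and 83.5 CPM in RANKL replicates 1 to 4. All 4 RANKL libraries lay below the lowest control library and within a narrow range. The mean was 150.2 ± 23.4 CPM in control and 81.01 ± 3.34 CPM with RANKL (SD, n = 4 each), a fall to 0.552 of control (edgeR log2 fold change -0.86, SE 0.12, adjusted p = 2.4e-06), and it passed under all 19 alternatives.

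Slc3a1 (rBAT; ENSMUSG00000024131, chr17:85028376-85064236, plus strand) is the heavy chain that pairs with the light chain Slc7a9 to take up cystine and basic amino acids. Slc3a1 had 35.4, 24.7, 24.6 and 22.4 CPM in control replicates 1 to 4 and 40.4, 54.4, 56.8 and 56.02 CPM in RANKL replicates 1 to 4. The groups did not overlap, with control replicate 1 and RANKL replicate 1 the nearest to each other. The fold was 1.89 (edgeR log2 fold change 0.92, SE 0.16, adjusted p = 6.2e-05), again past the threshold under all 19 alternatives, and with counts thinned to the depth of the shallowest library the log2 fold change was 1.51. Slc7a9, its partner, had 23.3, 24.4, 19.01 and 32.7 CPM in control replicates 1 to 4 and 12.9, 26.8, 17.2 and 17.6 CPM in RANKL replicates 1 to 4. Its groups overlapped and it did not pass (log2 fold change -0.27, SE 0.21, adjusted p = 0.37). The other light chain of the class, Slc7a7 (y+LAT1), which releases basic amino acids to the blood, averaged 37.6 ± 1.28 CPM in control and 35.97 ± 5.68 CPM with RANKL and overlapped.

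The sugar carriers differed from each other in level and in their test. Slc5a1 (SGLT1), which takes up glucose and galactose with sodium at the apical face, had 736, 742, 607 and 666 CPM in control replicates 1 to 4 and 743, 650.4, 601 and 759.6 CPM in RANKL replicates 1 to 4. The 2 groups covered nearly the same range (log2 fold change -0.0044, 95% interval -0.21 to 0.20). Slc2a2 (GLUT2; ENSMUSG00000027690, chr3:28697903-28731359, plus strand), which lets glucose out through the basolateral membrane, had 72.6, 79.7, 96.8 and 82.5 CPM in control replicates 1 to 4 and 77.5, 64.7, 62.1 and 58.8 CPM in RANKL replicates 1 to 4, where RANKL replicate 1 lay inside the control range and the other RANKL libraries below it. It fell by a small amount (edgeR log2 fold change -0.36, SE 0.13, adjusted p = 0.038), and this call was not stable: it held under 10 of 19 alternatives, DESeq2 gave an adjusted p of 0.12, and without control replicate 2, 3 or 4 or without RANKL replicate 2, 3 or 4 the edgeR adjusted p was 0.052, 0.13, 0.051, 0.083, 0.11 and 0.14, in a range of 0.015 to 0.14 over all alternatives. Slc2a5 (GLUT5), the fructose carrier, had 152, 177, 199 and 105 CPM in control replicates 1 to 4 and 147, 150, 144 and 135 CPM in RANKL replicates 1 to 4, with the RANKL libraries inside the wider control range.

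Slc15a1 (PEPT1), the proton-coupled carrier of di- and tripeptides, had low levels of 14.6, 17.4, 13.7 and 32.7 CPM in control replicates 1 to 4 and 32.3, 20.6, 16.2 and 20.9 CPM in RANKL replicates 1 to 4. Control replicate 4 and RANKL replicate 1, the shallowest libraries, were the highest of their groups, and the gene did not pass (log2 fold change 0.34, SE 0.23, adjusted p = 0.31). The bile acid exporter of the basolateral membrane is a dimer of Slc51a and Slc51b. Slc51a averaged 110.4 ± 13.3 CPM in control and 115 ± 13.6 CPM with RANKL and Slc51b averaged 12.9 ± 1.74 CPM in control and 15.3 ± 5.38 CPM with RANKL, and neither passed.

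The microvillus genes held most of the calls, with 3 rises and 3 falls among 14 (42.9%), against 25.9% of all genes. The control and RANKL values did not overlap for 3 of the 14 (21.4%), below the 24.6% of all genes. A protocadherin (Cdhr5), a transmembrane mucin (Muc13) and an actin bundler (Pls1) rose, whereas an actin capper (Eps8), another bundler (Espn) and an I-BAR protein (Baiap2l1) fell. The median log2 fold change over the class was -0.11. Without RANKL replicate 1 or 2, or by DESeq2, 1 fall was left, that of Eps8.

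Cdhr5 (ENSMUSG00000025497, chr7:141269083-141276786, minus strand) and Cdhr2 are the protocadherins that join the tips of neighbouring microvilli, and each binds the other across the gap. Cdhr5 had 376, 409, 403 and 396 CPM in control replicates 1 to 4 and 679.7, 675, 747 and 882 CPM in RANKL replicates 1 to 4. The control libraries were tightly grouped, and the lowest RANKL library stood far above the highest control one. The mean rose from 396 ± 14.6 to 746 ± 96.6 CPM (SD, n = 4 each), 1.89-fold (edgeR log2 fold change 0.92, SE 0.10, adjusted p = 1.5e-08). Under 19 alternatives its log2 fold change stayed between 0.83 and 0.97 and the adjusted p at or below 6.3e-07.

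Its partner Cdhr2 had 64.7, 57.7, 63.1 and 49.9 CPM in control replicates 1 to 4 and 46.8, 48.2, 51.1 and 47.2 CPM in RANKL replicates 1 to 4, so that 3 of the 4 control libraries were above every RANKL library, and the fit gave a value below 0 that missed the threshold (log2 fold change -0.32, SE 0.13, adjusted p = 0.075). Among the genes of the class, Ush1c (harmonin), a scaffold, and Myo7b, the myosin that sets the complex at the tips, also belong to this adhesion complex. Ush1c averaged 65.7 ± 4.0 CPM in control and 66.1 ± 10.7 CPM with RANKL and its groups overlapped. Myo7b averaged 49.8 ± 8.73 CPM in control and 62.6 ± 9.66 CPM with RANKL (log2 fold change 0.30, SE 0.15, adjusted p = 0.15), and without control replicate 3 it passed with an adjusted p of 0.026, in a range of 0.026 to 0.55 over the alternatives.

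Of the transmembrane mucins that coat the microvilli, Muc13 (ENSMUSG00000022824, chr16:33794037-33819934, plus strand) had the higher level, with 729, 898, 763 and 745 CPM in control replicates 1 to 4 and 1187, 1137, 959 and 1024 CPM in RANKL replicates 1 to 4. All RANKL libraries were above all control libraries, with control replicate 2 the nearest. Muc13 rose 1.37-fold (edgeR log2 fold change 0.45, SE 0.10, adjusted p = 0.00075) and passed under all 19 alternatives. Muc3 was low, with 21.1, 28.98, 20.02 and 30.95 CPM in control replicates 1 to 4 and 35.5, 22.02, 17.2 and 19.2 CPM in RANKL replicates 1 to 4, and overlapped.

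The genes of the actin core did not move as 1 group. Vil1 (villin), the bundler and severer that is a classic marker of the brush border, had 173, 165, 212 and 177 CPM in control replicates 1 to 4 and 192, 174, 157 and 172 CPM in RANKL replicates 1 to 4, with overlapping groups (log2 fold change -0.08, 95% interval -0.30 to 0.14). Pls1 (plastin 1, or fimbrin; ENSMUSG00000049493, chr9:95752642-95845311, minus strand), a second bundler, had 107, 92.6, 73.7 and 124 CPM in control replicates 1 to 4 and 161, 110.1, 122 and 141 CPM in RANKL replicates 1 to 4. It rose 1.37-fold (edgeR log2 fold change 0.45, SE 0.14, adjusted p = 0.014) although the groups overlapped. The call held under 15 of 19 alternatives: without RANKL replicate 1 or 4 the adjusted p was 0.06 and 0.058, with library depth as a covariate 0.19, and with thinned counts 0.055, in a range of 0.0026 to 0.19.

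Espn (espin; ENSMUSG00000028943, chr4:152120331-152152371, minus strand), the bundler that lengthens the core, was low and had 21.1, 24.4, 37.8 and 15.5 CPM in control replicates 1 to 4 and 17.8, 13.8, 20.9 and 14.8 CPM in RANKL replicates 1 to 4. Control replicate 3 stood highest, and the groups overlapped (edgeR log2 fold change -0.64, SE 0.23, adjusted p = 0.036). Without control replicate 3 the log2 fold change was -0.38 with an adjusted p of 0.2. Without RANKL replicate 1, 2 or 4 the adjusted p was 0.054, 0.13 and 0.13, and DESeq2 gave 0.18 in a range of 0.0099 to 0.24, so that 10 of 18 alternatives kept the call.

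Eps8 (ENSMUSG00000015766, chr6:137477245-137654876, minus strand), which caps and bundles actin at the tips of microvilli, had 75.2, 82.4, 81.6 and 99.7 CPM in control replicates 1 to 4 and 45.2, 64.7, 58.4 and 45.04 CPM in RANKL replicates 1 to 4. No RANKL library reached the lowest control library. Eps8 fell to 0.6598 of control (edgeR log2 fold change -0.60, SE 0.14, adjusted p = 0.0012) and passed under all 19 alternatives.

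The I-BAR proteins bend the membrane at the tips. Baiap2l1 (ENSMUSG00000038859, chr5:144264526-144358112, minus strand) had 41.3, 38.4, 44.3 and 24.1 CPM in control replicates 1 to 4 and 14.5, 25.5, 32.3 and 29.7 CPM in RANKL replicates 1 to 4. The groups overlapped, with control replicate 4 among the RANKL libraries. Its fall (edgeR log2 fold change -0.54, SE 0.18, adjusted p = 0.028) was called under 12 of 18 alternatives. The log2 fold change was -0.16 with the library total as a covariate (adjusted p = 0.69), the adjusted p was 0.051, 0.084 and 0.083 without control replicate 1, RANKL replicate 1 or RANKL replicate 2, and the range was 0.011 to 0.69. Baiap2l2 averaged 90.8 ± 9.39 CPM in control and 74.7 ± 7.47 CPM with RANKL and missed the threshold (log2 fold change -0.29, SE 0.12, adjusted p = 0.072).

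The membrane is tied to the core by Ezr (ezrin) and by Myo1a, the brush border myosin. Ezr averaged 263 ± 26.7 CPM in control and 266 ± 22.4 CPM with RANKL, with a log2 fold change of 0.03 (95% interval -0.18 to 0.24). Myo1a had 412, 447, 524 and 506 CPM in control replicates 1 to 4 and 410.1, 381, 383 and 447 CPM in RANKL replicates 1 to 4. The groups overlapped narrowly and the fit missed the threshold (log2 fold change -0.21, SE 0.10, adjusted p = 0.12), and without control replicate 1 the adjusted p was 0.048, in a range of 0.048 to 0.31 over the alternatives.

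**Figure D2:**
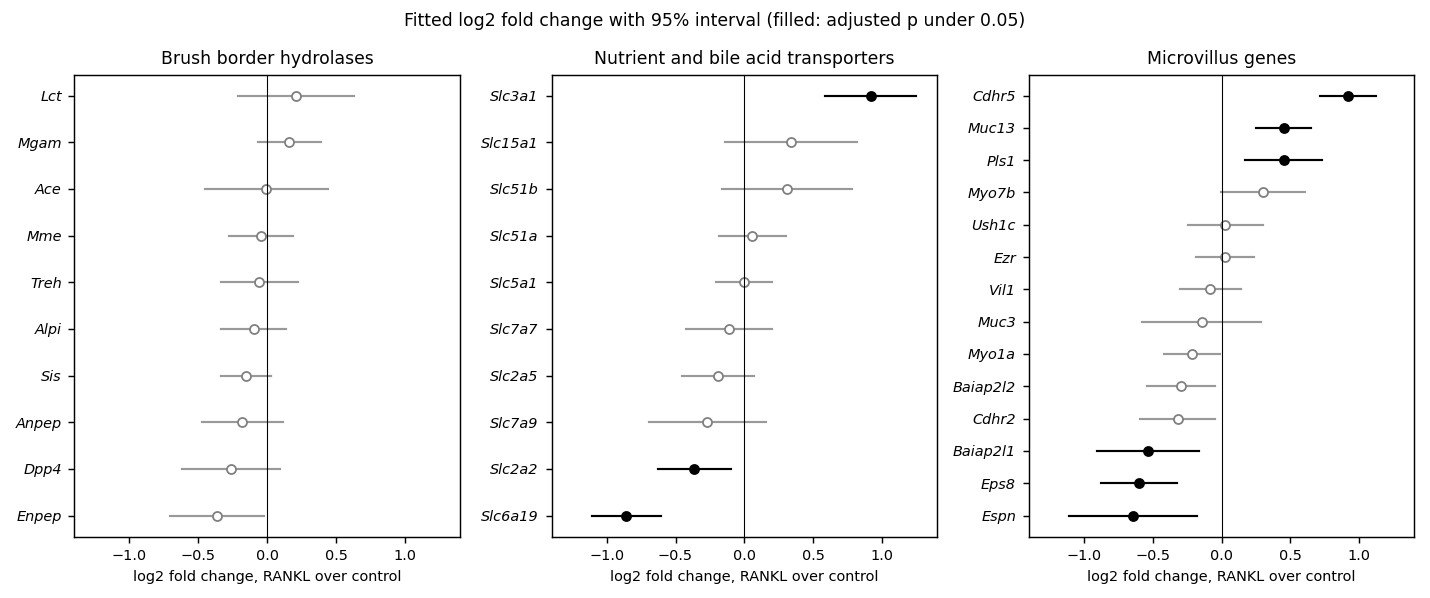
Fitted log2 fold change of RANKL over control (horizontal axis) with its 95% interval for the 34 tested genes, by class, with filled points for an adjusted p under 0.05 and open points for the others. No hydrolase is filled, and the filled points lie on both sides of 0 among the transporters and the microvillus genes, from -0.86 for Slc6a19 to 0.92 for Cdhr5.

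**Figure D3:**
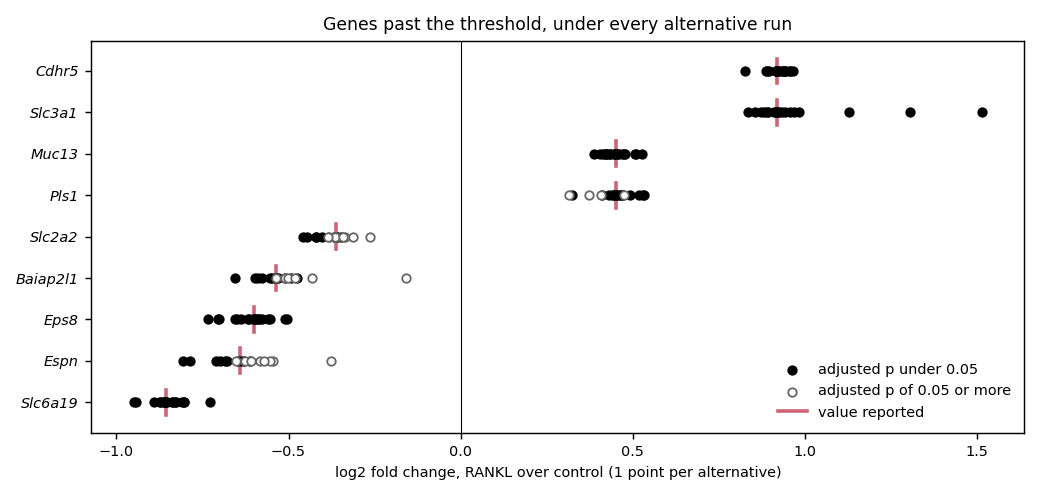
Log2 fold change of the 9 genes past the threshold under every alternative run, 1 point each, filled where the adjusted p was under 0.05, with a red bar at the value reported. All points keep the sign of the reported value, and Cdhr5, Slc3a1, Muc13, Slc6a19 and Eps8 have filled points alone.

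Because some of the products work in pairs, the ratio of their CPM values was taken within each library, after the values above had been seen and without a test. Cdhr5 over Cdhr2 was 5.81 to 7.93 in control and 14 to 18.7 with RANKL. Slc3a1 over Slc7a9 was 0.684 to 1.52 in control and 2.03 to 3.303 with RANKL. In both pairs the lowest RANKL ratio exceeded the highest control ratio. For the exporter dimer, Slc51a over Slc51b was 7.54 to 9.76 in control and 6.23 to 13.4 with RANKL, which overlapped. RANKL replicate 1 was the highest of the 8. Some of these ratios rest on few counts: Slc51b had 5 in RANKL replicate 1 and 7 in control replicate 4, and Slc7a9 had 8 in RANKL replicate 1. Mgam over Sis was 1.39 to 1.96 in control and 1.92 to 2.504 with RANKL, and Baiap2l1 over Baiap2l2 was 0.304 to 0.462 in control and 0.2195 to 0.425 with RANKL. Both of these overlapped. Slc6a19 over Slc5a1, which are not partners but are the main apical carriers of neutral amino acids and glucose here, was 0.198 to 0.264 in control and 0.109 to 0.139 with RANKL, without overlap.

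**Figure D4:**
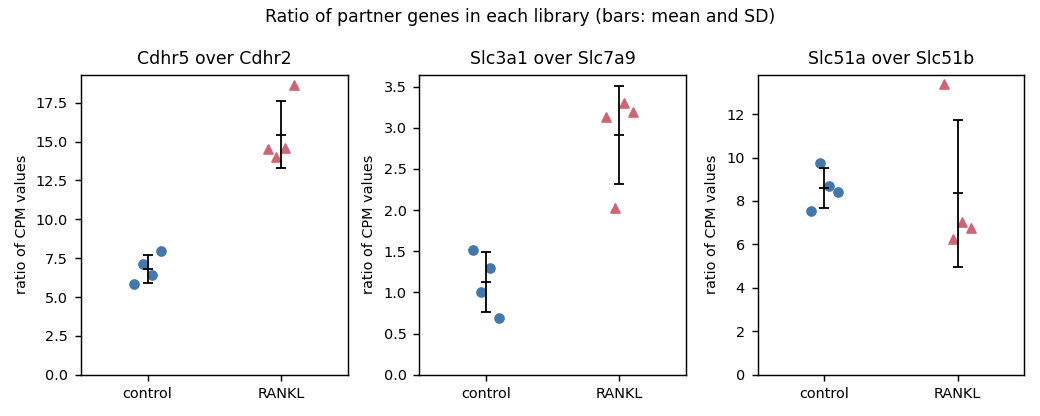
Ratio of CPM values of 3 gene pairs in each library (vertical axes from 0; blue circles control, red triangles RANKL; bars mean and SD, n = 4 per group). The RANKL libraries of Cdhr5 over Cdhr2 and of Slc3a1 over Slc7a9 all lie above the control libraries, and those of Slc51a over Slc51b mix with them.

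Summed over a class, the levels are again given as values with no test. The hydrolases summed to 2683 ± 215 CPM in control and 2718 ± 270.1 CPM with RANKL (SD, n = 4 each), a ratio of 1.01, and Mgam alone made up 46.8% of the control sum and 51.6% of the RANKL sum. Without Mgam the sums were 1426 ± 65.8 CPM in control and 1316 ± 74.5 CPM with RANKL, with overlapping libraries. The transporters summed to 1311 ± 57.5 CPM in control and 1239 ± 61.1 CPM with RANKL, with Slc5a1 at 52.5% and 55.6% of the sum. Without Slc5a1 they summed to 623 ± 28.96 CPM in control and 550.5 ± 22.2 CPM with RANKL, and then all RANKL libraries lay below all control libraries. Slc6a19 remained in this sum, and its mean went from 150.2 CPM in control to 81.01 CPM with RANKL. A sum without both was not taken, so a fall shared by the other transporters cannot be read from this separation. The microvillus genes summed to 2633 ± 123 CPM in control and 3172 ± 140.4 CPM with RANKL, 1.205-fold, with control libraries from 2453 to 2712 CPM and RANKL libraries from 3002 to 3295 CPM. Muc13 and Cdhr5 together made up the rise of this sum: Muc13 went from 29.8% to 33.9% of it and Cdhr5 from 15.0% to 23.5%, while Myo1a went from 17.9% to 12.8%. Without Muc13 the microvillus ratio was 1.13, still with no overlap between the groups. Without both Muc13 and Cdhr5, left out after these values were seen, the direction turned: the control libraries of the other 12 genes summed to 1454 ± 94.3 CPM and the RANKL libraries to 1349.5 ± 60.3 CPM, a ratio of 0.928, with overlapping libraries.

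**Figure D5:**
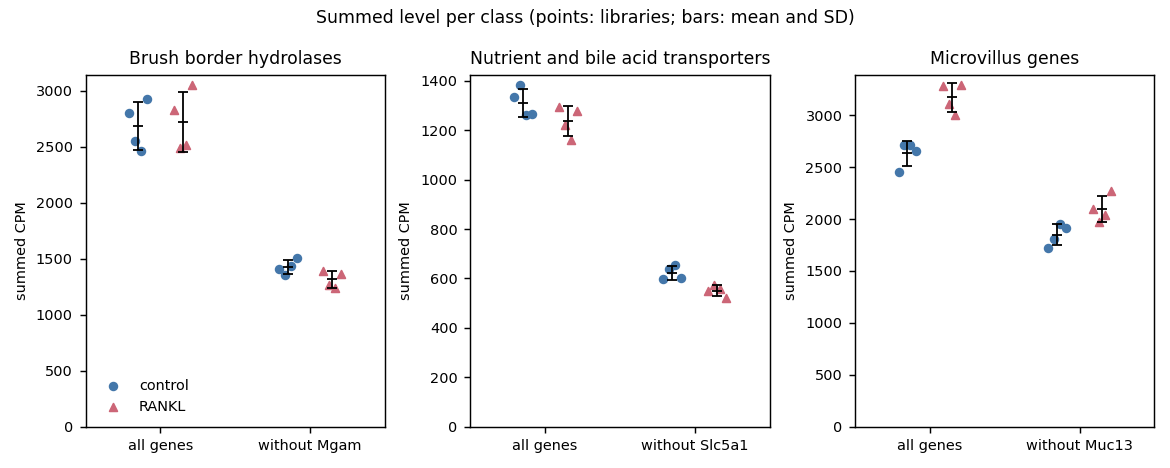
Summed CPM of each class in each library (vertical axes from 0), for all genes of the class and without its most abundant gene, with blue circles for control, red triangles for RANKL and bars for the mean and SD of 4 libraries. The microvillus sums with RANKL lie above those of control with and without Muc13, the hydrolase sums overlap in both forms, and the transporter sums separate once Slc5a1 is left out. Slc6a19 is still part of the transporter sums that separate.

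Further genes of the same structures, from lists beside the 35, also moved in both directions. Of 12 other brush border hydrolases, 6 had enough counts, of which 1 rose and 2 fell (3 of 6 called, against 25.9% of all genes), with a median log2 fold change of -0.22. Asah2, the neutral ceramidase that digests sphingolipids, rose (39.7 ± 5.66 CPM in control and 96.9 ± 4.53 CPM with RANKL; edgeR log2 fold change 1.26, SE 0.13, adjusted p = 5.4e-09). The gamma-glutamyl transferase Ggt1 fell (log2 fold change -0.46, SE 0.14, adjusted p = 0.015), and its adjusted p was 0.11 without control replicate 3 and 0.062 without RANKL replicate 4, in a range of 0.00048 to 0.11. Akp3 and Folh1 had 0 counts in all 8 libraries.

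Of 25 other carriers of the apical and basolateral membranes, 20 were tested, of which 3 rose and 5 fell (40.0% called, against 25.9% of all genes; median -0.18). The chloride-bicarbonate exchangers Slc26a3 (173 ± 13.4 CPM in control and 86.1 ± 19.2 CPM with RANKL; log2 fold change -1.01, SE 0.13, adjusted p = 3.1e-07) and Slc26a6 (log2 fold change -0.58, SE 0.12, adjusted p = 0.0007) fell, as did Abcb1a, a P-glycoprotein that pumps drugs back into the lumen (log2 fold change -0.67, SE 0.10, adjusted p = 5.7e-06). The nucleoside carrier Slc28a1 rose from a low level (4.23 ± 3.104 CPM in control and 12.9 ± 4.99 CPM with RANKL; log2 fold change 1.18, SE 0.32, adjusted p = 0.0069). Of the other calls, those of Slc7a8 and Abcc2 (lower) and Slc16a1 (higher) were the least stable and are named after their values were seen: they held under 10, 8 and 9 of 19 alternatives, in ranges of adjusted p of 0.014 to 0.26, 0.02 to 0.15 and 0.013 to 0.46. Slc7a8 was lost without control replicate 2 or 4 (0.19 and 0.052) or RANKL replicate 2 or 3 (0.13 and 0.26). Abcc2 was lost without control replicate 3 or 4 (0.15 and 0.066) or any 1 RANKL replicate (0.058 to 0.14). Slc16a1 was lost without control replicate 1 or 2 (0.15 and 0.079) or RANKL replicate 1, 2 or 3 (0.059, 0.16 and 0.1). Summed, these carriers had 1754 to 2029.6 CPM in control and 1388 to 1652 CPM with RANKL, with no overlap. The sum holds Slc26a3 and also Slc26a6 (mean 368 CPM in control and 250 CPM with RANKL) and Abcb1a (307 and 192 CPM). A sum without these falls was not taken, so a fall shared by the other carriers cannot be read from this separation.

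Of 20 other microvillus proteins, 16 were tested, of which 1 rose and 3 fell (25.0% called, close to the 25.9% of all genes; median -0.06). Lasp1, an actin-binding LIM protein, rose (291 ± 29.04 CPM in control and 497 ± 81.96 CPM with RANKL; log2 fold change 0.77, SE 0.11, adjusted p = 2.3e-06). The spectrin chain Sptbn1 of the terminal web fell (log2 fold change -0.41, SE 0.10, adjusted p = 0.0024), as did the actin nucleator Cobl (log2 fold change -0.32, SE 0.11, adjusted p = 0.037) and the membrane scaffold Mpp1 (log2 fold change -0.39, SE 0.14, adjusted p = 0.03). The Cobl call was lost without control replicate 4 or RANKL replicate 2, 3 or 4 (adjusted p 0.11, 0.15, 0.087 and 0.061, in a range of 0.0069 to 0.15), and that of Mpp1 without control replicate 4 or RANKL replicate 2 or 4 (0.053, 0.084 and 0.17, in a range of 0.012 to 0.17). Myo6, the most abundant of them and the myosin that pulls membrane inwards, averaged 992 ± 112 CPM in control and 916 ± 60.4 CPM with RANKL and did not pass.

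The organoids held enterocyte transcripts in both groups. All 13 enterocyte markers were tested, of which 2 rose and 4 fell (46.2% called, against 25.9% of all genes; median -0.19). Genes of lipoprotein assembly were among the falls: Apob (log2 fold change -0.61, SE 0.13, adjusted p = 0.00079), Mttp (log2 fold change -0.57, SE 0.10, adjusted p = 9e-05) and, in triglyceride synthesis, Dgat1 (log2 fold change -0.33, SE 0.09, adjusted p = 0.0079; adjusted p 0.053 without RANKL replicate 2, in a range of 0.0011 to 0.053). Apoa1, the main protein of high-density lipoprotein, rose (log2 fold change 0.33, SE 0.10, adjusted p = 0.011), and its adjusted p was 0.056 with the library total as a covariate and 0.061 without the 2 shallowest libraries, in a range of 0.00038 to 0.061. Of 7 genes of the villus tip, 6 were tested and 1 passed, Klf4, which fell (log2 fold change -0.51, SE 0.12, adjusted p = 0.0022), and Apoa4 as the most abundant averaged 1233 ± 137 CPM in control and 1388 ± 95.02 CPM with RANKL.

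Among 16 transcription factors of the enterocyte, 15 were tested, of which 1 rose and 4 fell (33.3% called, against 25.9% of all genes; median -0.18). Ppara, the receptor that controls fatty acid oxidation, fell (74.3 ± 20.99 CPM in control and 36.6 ± 8.23 CPM with RANKL; log2 fold change -0.91, SE 0.18, adjusted p = 0.00026), and Cdx1, a homeobox factor close to CDX2, rose (98.6 ± 12.4 CPM in control and 175 ± 14.8 CPM with RANKL; log2 fold change 0.79, SE 0.11, adjusted p = 2.6e-06). Klf5, the most abundant of these factors, averaged 468 ± 21.4 CPM in control and 409.8 ± 32.1 CPM with RANKL and did not pass.

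Markers of other cell types moved with the treatment, and their part in the values above was not tested. The counts of markers past the threshold are to be read against the same 25.9% of all genes. M cells are the antigen-sampling cells of the epithelium that RANKL induces, and they carry few microvilli. Of 12 M cell markers 9 were tested and all 9 rose (median 3.71), with a summed level of 143 to 186 CPM in control and 2199 to 2534 CPM with RANKL. Spib, the factor that drives their development, went from 4.35 ± 1.42 to 1607 ± 124 CPM (log2 fold change 8.56, SE 0.16, adjusted p = 4.8e-27), and Tnfaip2 from 2.73 ± 1.25 to 63.4 ± 14.9 CPM, whereas Gp2, which marks mature M cells, had 0 counts in all 8 libraries. Of 10 stem cell markers 9 were tested, of which 1 rose and 4 fell (median -0.46), and their summed level was 2129 to 2604 CPM in control and 1834 to 1986 CPM with RANKL. Of 10 proliferation markers 2 passed and fell, Mki67 and Pcna (median -0.21). The Mki67 call was lost in 5 of 19 alternatives, among them without control replicate 4, RANKL replicate 1 or RANKL replicate 2 (adjusted p 0.062, 0.055 and 0.082, in a range of 0.0076 to 0.29), and that of Pcna in 3, among them without RANKL replicate 4 (0.089, in a range of 0.0057 to 0.5).

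Among the secretory lineages, 11.1% of the tested Paneth cell markers and 11.1% of the goblet cell markers passed, below the 25.9% of all genes. For the enteroendocrine markers the share was 30%, above it. Of 9 tested Paneth cell markers of 10, 1 passed and fell (median 0.12, summed 5770 to 7322 CPM in control and 5662 to 6843 CPM with RANKL). Of 9 goblet cell markers 1 passed and fell, Spdef (median -0.03, summed 2820.2 to 3479.9 and 3164 to 3434 CPM). Its call was lost in 7 of 19 alternatives, among them DESeq2 (adjusted p = 0.17), the replicate block (0.065) and the fits without control replicate 3, RANKL replicate 2 or RANKL replicate 4 (0.067, 0.11 and 0.14), in a range of 0.024 to 0.45. Of 10 enteroendocrine markers 3 passed, and these rose, namely Cck, Gip and Sct (median 0.14, summed 843 to 958 and 879 to 1002 CPM). None of the 3 calls held throughout. That of Sct was lost in 9 of 19 alternatives, among them DESeq2 (adjusted p = 0.15), limma-voom (0.056) and the fits without control replicate 2 or 4 (0.13 and 0.074) or RANKL replicate 1, 2 or 3 (0.064, 0.12 and 0.18), in a range of 0.012 to 0.18. That of Gip was lost in 3, among them without RANKL replicate 4 (0.082, in a range of 0.011 to 0.23), and that of Cck in 2, with no filter (0.06) and with the covariate (0.062), in a range of 0.0075 to 0.062. Tuft cell markers had counts for 1 test of 10, which was not past the threshold, and summed to 12.0 to 25.5 and 18.8 to 25.8 CPM, with Il25 and Gnat3 at 0. Stromal markers summed to 2.93 to 18.9 and 4.13 to 8.07 CPM with Dcn at 0, and immune markers to 3.44 to 9.93 and 4.13 to 9.69 CPM with Cd3e and Cd79a at 0, and none of these 14 genes had enough counts to be tested.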

How the data were processed

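QuantSeq 3′ mRNA libraries of total RNA from 4 control and 4 RANKL-treated organoid samples were sequenced as single reads of 50 bases. Per the study's methods, the authors trimmed reads with BBDuk, removed those of ribosomal, mitochondrial, phiX and adapter sequence with bowtie2, aligned the rest to GRCm38/mm10 with STAR and used featureCounts to count them by strand in Ensembl release 94 genes. The deposited table holds the resulting raw counts, without normalization. They run from 583663 to 7807298 in total per library, and no column was left out. Mitochondrial transcripts and reads that map to several places cannot be judged from such a table.

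From the counts, RANKL was compared with control by the quasi-likelihood test of edgeR 4.0.16 (R 4.3.3) with TMM factors, over the 9971 genes its filter kept, adjusted by Benjamini-Hochberg at 0.05, and intervals are at 95%. Single genes also got an exact two-sided permutation test of mean CPM. Alternatives used DESeq2 1.42.0, limma 3.58.1 (voom), other scalings and filters, a library-depth covariate, a replicate block, and each library left out. Thinned counts and the fit without the 2 shallowest libraries were added after seeing the data. On simulated counts with 200 changed genes, the edgeR step recovered 187 with 13 false calls among 10000 genes tested. Recovery at the fold changes reported for the brush border genes was not tested. Groups come from the sample labels. Gene positions and symbols are from GENCODE M21 (GRCm38), where 54495 of 54532 identifiers matched. No pair of libraries agreed within sampling noise. The 35 genes and the 15 further lists were chosen with earlier results of these data known. Any of the 35 could be named, and of each further list up to 4 genes past the threshold with the largest log2 fold change at a mean of at least 5 CPM, plus its most abundant gene. Some genes of these lists are not reported here. Promoters from the RefSeq table had the 250 bases before the start searched, and for 4 members no entry was found. Tables were handled in Python 3.11.15 with pandas 2.3.3 and scipy 1.17.1.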

Additional observations from a re-analysis of the deposited data

Results flagged for a closer look

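Of 78 groups of 4 libraries tested for a sample far from the other 3, 2 stood out, where chance alone gives about 3.9 (1 in 20). Lct was at 85.99 CPM in control replicate 4, a shallow library, and its next control library was at 40.5 CPM. The log2 fold change of Lct was 0.21 with this library and 0.38 without it. Slc3a1 was at 40.36 CPM in RANKL replicate 1, the other shallow library, and the next RANKL library was at 54.4 CPM. Its log2 fold change was 0.92 with this library and 0.98 without it.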

How the results depend on the processing

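Over 19 refits and a stricter threshold, the 34 tested brush border genes kept their direction and side of the threshold in 606 values, lost a call in 31, gained one in 3 and changed sign in 36. No gene past the threshold changed sign. Cdhr5, Slc3a1, Muc13, Slc6a19 and Eps8 kept their calls throughout. The falls, 5 in the reported fit, numbered 2 by DESeq2, 3 with at least 10 counts in every library, 3 with the library total as a covariate, 2 with thinned counts, 2 at an adjusted p of 0.01, and 2 to 5 with 1 library left out. Among the transporters the 2 falls became 1 with library totals alone, DESeq2, thinned counts or an adjusted p of 0.01, and 1 to 2 with 1 library left out. Among the microvillus genes the 3 falls became 1 by DESeq2, with at least 10 counts in every library, with the covariate, thinned counts or an adjusted p of 0.01, and 1 to 3 with 1 library left out. The hydrolases had 0 falls, and 0 to 1 with 1 library left out. The filter on at least 10 counts in every library leaves out Espn, Baiap2l1, Slc7a9 and Slc51b. Elsewhere the cause was not tested.

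Over all genes the 1355 rises became 764 with thinned counts, and the 1232 falls became 808 with the covariate, 637 with thinned counts, 707 at an adjusted p of 0.01 and 814 to 1234 with 1 library left out. With the replicate number as a block there were 1362 rises and 1248 falls over all genes and again 4 and 5 among the brush border genes, with no call of theirs changed. The samples share only a number: same-numbered samples correlated at -0.034 to 0.104 in their deviations from the group means, and not every sample correlated best with its own number. The log2 ratio of summed levels was -0.12 for the hydrolases without Mgam, -0.18 for the transporters without Slc5a1 and 0.18 for the microvillus genes without Muc13 (-0.11 without Muc13 and Cdhr5, an alternative chosen after seeing the data), against 0.02, -0.08 and 0.27 with all genes. Without a filter on low counts the median log2 fold change of all genes was -0.11 and in DESeq2 0.10, against 0.00, but both of these medians cover 23836 genes. Over the 9971 genes of the reported fit they were -0.04 and -0.0050.

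The genes that changed sign missed the threshold under each setting named here. With the covariate, the log2 fold change was -0.15 for Lct, 0.0019 for Slc5a1, -0.17 for Slc15a1, -0.081 for Ezr and -0.040 for Ush1c. With thinned counts it was -0.21 for Lct, 0.094 for Ace, 0.18 for Slc7a7, -0.12 for Slc51b and -0.041 for Ezr. Library totals alone gave 0.017 for Ace and 0.0197 for Slc5a1, DESeq2 gave 0.0055 for Ace, at least 10 counts in every library gave 0.0084 for Ace and 0.0127 for Slc5a1, and no filter gave -0.0059 for Ezr and -0.0123 for Ush1c. With 1 library left out the values ran from -0.019 to 0.38 for Lct, -0.15 to 0.047 for Mme, -0.19 to 0.14 for Ace, -0.12 to 0.0036 for Treh, -0.068 to 0.059 for Slc5a1, -0.13 to 0.0055 for Vil1, -0.037 to 0.088 for Ezr, -0.088 to 0.14 for Ush1c and, among the enteroendocrine markers, -0.10 to 0.0187 for Chgb, which was at 0.027 without the 2 shallowest libraries. Naaladl1, on 26 counts in the RANKL libraries, was below the filter on low counts, and its difference was not detectable at this depth in the fits that held it.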
